A study of Rattus rattus with 18 samples.

Results

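miR-3084 is a small group of rat microRNAs (miRNAs) whose hairpins are read on this array from both arms. The members were every miRNA probe whose name begins rno-miR-3084, which gave 5 probes of 761, and all 5 were among the 532 probes tested. The probes came from the 3p arm in 2 cases (rno-miR-3084a-3p and rno-miR-3084c-3p) and from the 5p arm in 3 cases (rno-miR-3084a-5p, rno-miR-3084b-5p and rno-miR-3084c-5p). The group was chosen by its values in transient middle cerebral artery occlusion (tMCAO) against sham, where earlier results of these data had its 3p and 5p arms changing in opposite directions, so the values of that contrast are given as a description with no test.

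The brains came from 9 Sprague Dawley rats, with 3 sham-operated rats, 3 rats with tMCAO and 3 rats with remote limb postconditioning (PostC). In tMCAO a filament blocks the middle cerebral artery for a limited time and is then withdrawn. In remote limb postconditioning the blood flow of a limb is interrupted after the ischemia, but it is not stated in the sources used here whether the PostC rats had tMCAO as well. The study's methods name more than 1 time of sacrifice after reperfusion and do not say which one the array samples had. Each rat gave a core and a periischemic (peri) sample, each on its own single-colour array of total RNA, so there were 18 arrays in 6 groups of 3. The labels and the study's methods assign these regions to cortex and striatum in opposite ways, so they are called core and peri here.

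An miRNA hairpin is cut by the nucleases Drosha and Dicer to a short duplex whose strands are the 5p and the 3p arm. Usually 1 strand of the duplex is loaded into an Argonaute protein and the other is degraded, and the loaded strand recognises messenger RNAs mainly through its seed, bases 2 to 8. The arms of a hairpin are therefore made together but can differ in how much of each remains. Each array probe carries the complement of 1 mature sequence, so the arms are measured separately.

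The sequences are shown to make plain which miRNAs a probe can tell apart. They are the target sequences in the deposited array files, written 5′ to 3′ with the seed in capitals.
rno-miR-3084a-3p: uUCUGCCAguccccuucagaca
rno-miR-3084c-3p: cUGCCAGUucccuucagacaa
rno-miR-3084a-5p: uUGAAGGUucauuagcagagua
rno-miR-3084b-5p: gUUGAAGGuuaauuagcagagu
rno-miR-3084c-5p: gUUGAAGGuuaauuagcagag

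The 5 probes covered 7 mature miRNAs, since the file assigns the rno-miR-3084a-3p probe to 3 of them, rno-miR-3084a-3p, rno-miR-3084b-3p and rno-miR-3084d. A change on that probe therefore cannot be given to 1 of the 3. The 3p sequences matched each other at 19 of 20 aligned bases with a shift of 2 bases between their 5′ ends, so their seeds differ, UCUGCCA for rno-miR-3084a-3p and UGCCAGU for rno-miR-3084c-3p. rno-miR-3084c-5p matched rno-miR-3084b-5p at 21 of 21 bases, and both have the seed UUGAAGG. rno-miR-3084a-5p matched rno-miR-3084b-5p at 20 of 21 bases with a shift of 1 base and has the seed UGAAGGU. Probes this alike can bind each other's targets, so the 3 5p probes are not independent readings. Of the other probes on the array, only rno-miR-192-3p shared a seed with a member (UGCCAGU), and the closest other sequence matched a member at 14 bases at most. The arms also differed in base composition: the 3p targets were 54.5% and 52.4% G or C, and the 5p targets 36.4%, 36.4% and 38.1%.

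Several features of the arrays bear on every value below. The number of miRNA probes above the detection limit, set from the empty spots of each array, ran from 318 to 509 on the sham arrays, from 189 to 447 on the tMCAO arrays and from 188 to 605 on the PostC arrays. Of the 8 miRNAs fixed as brain markers, 7 were detected on all 18 arrays and miR-218a-5p on 16, and their summed log2 level stayed between 16.26 and 16.95 in all conditions. This sum is led by its brightest members, and single markers differed in tMCAO minus sham, with log2 changes of -2.23 for miR-218a-5p, -1.61 for miR-137-3p, -1.20 for miR-9a-5p and 1.01 for miR-129-2-3p. Of 3 red blood cell miRNAs, miR-144-3p, a defining member, was undetected on every array. miR-451-5p, detected on all 18 arrays, had log2 changes of 0.14 in tMCAO minus sham and -0.40 in PostC minus sham. For miR-486, detected on 3 of 6 arrays in each condition, they were 1.39 and 0.82. The summed level of the 3 ran from 10.35 to 12.06 in sham, from 10.66 to 12.03 in tMCAO and from 9.92 to 12.69 in PostC. The corresponding ranges were 8.21 to 9.22, 8.18 to 9.92 and 8.27 to 10.26 for 4 leukocyte miRNAs, of which miR-142-3p was detected on 1 array, while the log2 changes in tMCAO minus sham were 0.87 for miR-155-5p and 0.75 for miR-223-3p, each detected on 2 of 6 tMCAO arrays, and -0.28 for miR-142-5p, detected on 0 of 6. The summed ranges were 9.46 to 10.16, 9.27 to 10.01 and 9.61 to 11.04 for 4 miRNAs of liver and muscle, of which miR-122-5p was detected on 1 array. The others had log2 changes in tMCAO minus sham of -1.12 for miR-1-3p, -0.23 for miR-206-3p and 0.65 for miR-133a-3p. These were detected on 0, 2 and 3 of 6 tMCAO arrays and each on 6 of 6 sham arrays. The part of these cells in the miR-3084 values was not tested.

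PostC rat 3 stood apart. After each probe's mean over the 18 arrays was subtracted, its peri array correlated at 0.43 to 0.56 with the 3 tMCAO peri arrays and at -0.46 with both other PostC peri arrays. Its core array, which had the most detected probes of all, correlated at -0.65 with its own peri array. With the peri arrays of PostC rats 1 and 2 that core array correlated at 0.37 and 0.30, and with their core arrays at 0.05 and -0.03. With the core array of sham rat 2 it correlated at 0.39. The peri array of rat 3 correlated at -0.24 and -0.12 with the core arrays of PostC rats 1 and 2. These are correlations across the 532 tested probes, which are not independent replicates. Within PostC, the deviations of the core and the peri array from their group means correlated at -0.40, -0.36 and -0.51 in rats 1, 2 and 3. Deviations from a group mean cancel out over its 3 rats, so the values of rats 1 and 2 are not independent of rat 3. The same correlations were -0.14, -0.15 and 0.49 in the tMCAO rats and 0.16, 0.49 and 0.30 in the sham rats. The labels cannot settle whether the core and peri samples of rat 3 were assigned as named, and its arrays are used as labelled, so every PostC value by region rests on that assignment. The main PostC results are therefore also given without rat 3.

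The 3p probe rno-miR-3084a-3p was above the detection limit on all 18 arrays. Its normalized log2 intensity in core was 9.50, 8.15 and 9.54 in the sham rats, 11.23, 11.58 and 10.74 in the tMCAO rats, and 10.72, 9.30 and 8.20 in the PostC rats. In peri it was 8.31, 8.89 and 9.17 in sham, 10.76, 10.30 and 9.89 in tMCAO, and 9.00, 8.67 and 9.61 in PostC. All 3 tMCAO arrays lay above all 3 sham arrays in both regions, whereas the PostC arrays overlapped the sham arrays. In whole tissue, a change in the number of cells that hold an miRNA and a change in its amount per cell cannot be told apart. On the authors' deposited intensity scale the core means were 506 ± 255 units in sham, 2091 ± 439 in tMCAO and 667 ± 453 in PostC (SD, n = 3).

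rno-miR-3084c-3p, the other 3p probe, was also detected on all 18 arrays but separated the groups less. In core its normalized log2 intensity was 9.57, 9.01 and 9.78 in sham, 9.93, 8.52 and 10.91 in tMCAO, and 9.40, 9.35 and 8.48 in PostC. In peri it was 8.27, 9.12 and 8.72 in sham, 9.24, 9.66 and 10.14 in tMCAO, and 9.06, 8.78 and 9.37 in PostC. The tMCAO and sham arrays overlapped in core, where tMCAO rat 2 was below every sham array, and did not overlap in peri.

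The 5p probes were dimmer relative to their own arrays' background. Each of the 3 was detected on 10 of 18 arrays, and these were the same 10 arrays for each: 6 of 6 sham arrays, the core array of tMCAO rat 1, the core array of PostC rat 3 and the peri arrays of PostC rats 1 and 2. Where the limit was set by the least bright 25% of miRNA spots instead, all 6 sham arrays and between 4 and 5 of the 6 tMCAO arrays measured each 5p probe.

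rno-miR-3084c-5p had the lowest tMCAO minus sham change of the 3 5p probes in core but not in peri. Its normalized log2 intensity in core was 8.38, 9.20 and 8.85 in sham, 7.46, 6.98 and 6.52 in tMCAO, and 7.99, 6.66 and 8.87 in PostC. In peri it was 8.61, 8.44 and 8.99 in sham, 7.70, 8.02 and 8.70 in tMCAO, and 8.88, 9.17 and 6.94 in PostC. The tMCAO and sham arrays did not overlap in core and overlapped in peri, and PostC was split, with rat 3 high in core and low in peri and rats 1 and 2 the other way round.

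rno-miR-3084b-5p read 8.05, 8.87 and 8.35 in sham core, 7.53, 6.93 and 6.63 in tMCAO core, and 7.37, 6.28 and 8.40 in PostC core on the same log2 scale. In peri it read 8.12, 8.04 and 8.35 in sham, 7.50, 7.46 and 7.83 in tMCAO, and 8.35, 8.68 and 6.75 in PostC. For rno-miR-3084a-5p the core values were 7.70, 8.55 and 8.002 in sham, 7.56, 6.94 and 6.79 in tMCAO, and 7.21, 6.37 and 8.04 in PostC. Both probes were lower on every tMCAO array than on every sham array of the same region. In peri rno-miR-3084a-5p read 7.72, 7.69 and 7.91 in sham, 7.38, 7.27 and 7.59 in tMCAO, and 7.996, 8.19 and 6.67 in PostC, with the same split between PostC rat 3 and the other two.

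**Figure D1:**
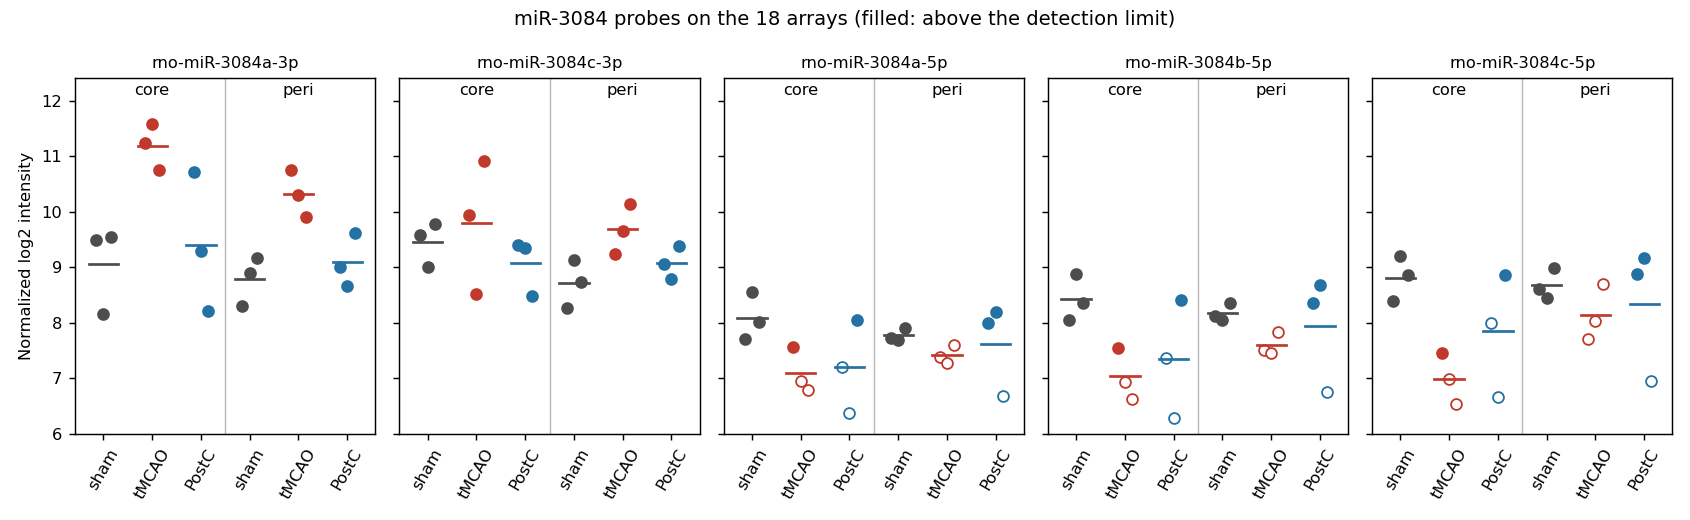
Normalized log2 intensity (vertical axis) of the 5 miR-3084 probes, 1 panel each, in core and peri of the sham, tMCAO and PostC rats (horizontal axis). Each point is 1 array, filled where the probe was above the detection limit, and each bar is the mean of 3 arrays. rno-miR-3084a-3p is highest in tMCAO, at 9.89 to 11.58, and the 5p probes are mostly open points in tMCAO. Levels are comparable within a panel only, not between probes.

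In tMCAO against sham, with the core and peri values of each rat averaged, rno-miR-3084a-3p was higher by 1.82 ± 0.34 on the log2 scale (SE from limma, 3 rats against 3), which is 3.54-fold. It had the third highest change of the 532 probes, whose median was -0.02. rno-miR-3084c-3p was higher by 0.66 ± 0.34, and by 0.26 without tMCAO rat 3. The 5p probes read lower, but only 1 of 6 tMCAO arrays, the core array of rat 1, had them above the limit, so the sizes rest mainly on readings under it. Their measured log2 changes were -0.67 ± 0.18 for rno-miR-3084a-5p, -0.98 ± 0.19 for rno-miR-3084b-5p and -1.18 ± 0.22 for rno-miR-3084c-5p. Over the rats' averages, rno-miR-3084a-3p did not overlap between the groups, as held for 17.7% of all tested probes in the higher direction, and neither did the 3 5p probes, as held for 23.3% in the lower direction. rno-miR-3084c-3p overlapped. This contrast chose the group, so nothing is read from these shares.

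The 2 regions gave the same signs for each probe. In core the log2 changes were 2.12 ± 0.64 for rno-miR-3084a-3p and 0.34 ± 0.59 for rno-miR-3084c-3p. They were -0.99 ± 0.44, -1.39 ± 0.51 and -1.82 ± 0.54 as measured for the a, b and c 5p probes, with 1 of 3 tMCAO core arrays above the limit, all 3 without overlap, beside a background of 16.7% of probes higher and 24.2% lower without overlap. In peri they were 1.53 ± 0.39 and 0.97 ± 0.37 for the a and c 3p probes, both without overlap (background 15.6%). The 5p changes in peri were -0.36 ± 0.35, -0.57 ± 0.42 and -0.54 ± 0.51, without overlap for the a and b probes (background 16%). Since no 5p probe was above the limit on any tMCAO peri array, those means are readings under the limit. Set against the limit instead, the group means of normalized log2 values put rno-miR-3084c-5p 1.29-fold lower in tMCAO peri than in sham peri. For this, each tMCAO array counted at the lowest signal of its detected probes or at the probe's own reading, whichever was higher. This floor covers the limit only and not the spread between rats. The limma interval of the measured change ran from -1.64 to 0.57 and the groups overlapped, so no minimum fall is shown. The same floor allows no fold for the a and b probes. Leaving out 1 rat at a time moved the measured rno-miR-3084c-5p change in peri between -0.81 and -0.32.

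The direction of rno-miR-3084c-3p depended on the scaling and, in core, on tMCAO rat 3, without which its core change was -0.23. With median scaling of the arrays its tMCAO minus sham change was -0.05 for the rat mean and -0.15 in peri. That of rno-miR-3084a-3p was then 0.345 in peri and 1.10 for the rat mean, while the rat-mean median of all probes moved to -0.21. Relative to that median, rno-miR-3084a-3p remained above and the 5p probes, at -0.97 to -1.66, below. Removing the trend of each array with GC content left the 5p changes at -0.27, -0.58 and -0.84 for a, b and c.

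**Figure D2:**
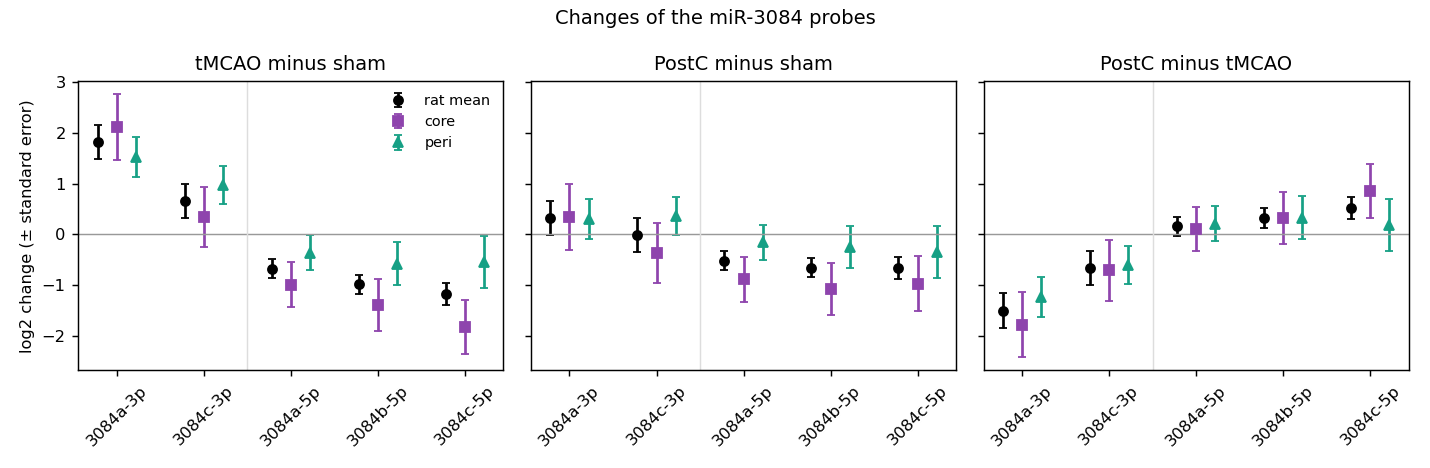
log2 changes (vertical axis) of the 5 miR-3084 probes (horizontal axis) in tMCAO minus sham, PostC minus sham and PostC minus tMCAO, for the rat mean (circles), core (squares) and peri (triangles). Bars are standard errors from limma, 3 rats a group. The 3p probes lie above 0 and the 5p readings below 0 in tMCAO minus sham, from 1.82 for rno-miR-3084a-3p to -1.18 for rno-miR-3084c-5p in the rat means.

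PostC against sham asks whether the arms also differed in the rats with postconditioning. The contrast behind the choice of the group used the sham rats but not the PostC rats, and earlier results of all groups were known, so this comparison is not independent of the choice. No member passed the test (limma over 532 probes, Benjamini-Hochberg), in a comparison where 1 probe did (0.188%). The 3p probes changed by 0.32 (95% interval -0.43 to 1.08, adjusted p = 0.70) for rno-miR-3084a-3p and by 0.00 (-0.75 to 0.74, adjusted p = 0.99) for rno-miR-3084c-3p. The 5p probes changed by -0.52 (-0.92 to -0.11, unadjusted p = 0.0170), -0.66 (-1.08 to -0.23, unadjusted p = 0.00585) and -0.66 (-1.14 to -0.18, unadjusted p = 0.0115) for a, b and c in limma. Their adjusted p were 0.289, 0.248 and 0.286. In all 3 the averaged PostC rats lay below all averaged sham rats, as held for 7.52% of probes in that direction.

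The averages hide how the regions of PostC differed. The SD of rno-miR-3084c-5p over PostC rats was 0.31 for the average of the regions but 1.11 in core and 1.21 in peri, since rat 3 was high where the others were low. Within core, the 5p changes against sham were -0.88, -1.07 and -0.97, and within peri -0.15, -0.24 and -0.35, all with overlapping groups. No probe passed in either region (0% of 532 each, with 90 probes in core and 14 in peri at an unadjusted p under 0.05 in limma). Without PostC rat 3, the core changes were -1.30, -1.60 and -1.48 and the peri changes 0.32, 0.34 and 0.35 for a, b and c, and none of these passed (adjusted p = 0.112 to 0.861 in limma). The core arrays of PostC rats 1 and 2 read all 3 5p probes under the limit, so these core sizes rest on such readings. The rat means without rat 3 were -0.49, -0.63 and -0.57 for the 5p probes, 0.50 for rno-miR-3084a-3p and 0.07 for rno-miR-3084c-3p.

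In PostC against tMCAO, the group had been chosen by its values in these same tMCAO rats, so a lower 3p value in another group follows in part from the choice and the test is not independent of it. rno-miR-3084a-3p was the only member that passed. It fell by 1.50 on the log2 scale (95% interval -2.25 to -0.75, adjusted p = 0.0278 in limma), to 0.353 times its tMCAO level. In this comparison 30 probes passed (5.64%), 27 of them higher and 3 lower in PostC. The averaged PostC rats lay below all averaged tMCAO rats, as held for 7.52% of probes in the lower direction. The call was lost without PostC rat 2 (-1.37, adjusted p = 0.115), PostC rat 3 (-1.33, adjusted p = 0.0812), tMCAO rat 1 (-1.38, adjusted p = 0.120) or tMCAO rat 2 (-1.41, adjusted p = 0.130), each in limma. It was also lost with median scaling (-1.14, adjusted p = 0.0645) and with the per-probe test of the study's methods on the same values (adjusted p = 0.172).

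The remaining members gave intervals that mostly spanned 0 in PostC against tMCAO. rno-miR-3084c-3p changed by -0.66 (-1.40 to 0.09; -0.26 without tMCAO rat 3), rno-miR-3084a-5p by 0.16 (-0.25 to 0.56) and rno-miR-3084b-5p by 0.33 (-0.09 to 0.75). rno-miR-3084c-5p changed by 0.52 (0.04 to 1.00, adjusted p = 0.218 in limma). Its averaged PostC rats all lay above the averaged tMCAO rats, as held for 18.6% of probes in the higher direction. Only 1 tMCAO array and 3 PostC arrays read this probe above the limit, so its change rests mainly on readings under it. Of 15 processing alternatives 14 kept its sign, and plain subtraction of the background turned it to -0.20. Without PostC rat 3 the changes of these 4 members were -0.58, 0.19, 0.36 and 0.61. By region, the rno-miR-3084a-3p change was -1.78 in core, where 2.26% of probes passed, and -1.22 in peri, where 0% passed and 31 had an unadjusted p under 0.05. Neither passed in limma (adjusted p = 0.247 and 0.631), although the PostC and tMCAO arrays did not overlap (6.58% of probes in core and 4.7% in peri were lower without overlap). Without PostC rat 3 the rno-miR-3084a-3p change was -1.17 in core (adjusted p = 0.563) and -1.48 in peri (adjusted p = 0.0273), and that of rno-miR-3084b-5p in peri was 0.92 (adjusted p = 0.0381), all in limma. In that peri fit of 2 against 3 rats 11.1% of all probes passed, and no tMCAO peri array read rno-miR-3084b-5p above the limit.

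To follow the arms of 1 hairpin within a rat, the 5p value was subtracted from the 3p value on the same array and set against the sham mean. This arm gap takes out whatever moves both probes of an array alike, and it is compared between rats only. It does not take out what moves the 2 arms in opposite directions. With group means removed, the number of probes detected on an array correlated at 0.73 to 0.80 with the 5p probes. With the a and c 3p probes it correlated at -0.61 and -0.54. The 5p probe of the gap was under the detection limit on 5 of 6 tMCAO arrays and 3 of 6 PostC arrays. The gaps of these rats are therefore measured readings against a probe mostly not above background. With core and peri averaged, the miR-3084a gap was 0.19, -0.59 and 0.40 in the sham rats, 2.53, 2.84 and 2.13 in the tMCAO rats and 1.26, 0.70 and 0.55 in the PostC rats. The 3 conditions did not overlap, with the PostC readings between those of sham and tMCAO. For miR-3084c the gap was 0.09, -0.08 and 0.00 in sham, 1.67, 1.25 and 2.58 in tMCAO and 0.46, 0.82 and 0.69 in PostC, in the same order and again without overlap. This order without overlap held for 2 of 156 hairpins (1.28%), miR-3084a and miR-3084c themselves, and the reverse order was not counted. The tMCAO values in it are those that chose the group, so nothing is read from this share. The 5p probes of the 2 hairpins correlated at 0.93 over the 18 arrays, so these are not separate cases. The miR-3084b gap, which uses the shared 3p probe, was 2.81 wider in tMCAO than in sham and 0.98 wider in PostC.

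The gap was wider in tMCAO than in sham by 2.50 for miR-3084a and by 1.83 for miR-3084c, given as a description beside the 21.8% of hairpins whose gap was wider without overlap. In PostC against sham it was wider by 0.84 for miR-3084a (0.56 to 1.86 under other processing) and by 0.66 for miR-3084c (0.42 to 2.56). Each had a two-sided exact permutation p of 0.1, the smallest that 3 rats against 3 allow, and 12.8% of hairpins were wider without overlap. In PostC against tMCAO it was narrower, with changes of -1.66 and -1.18 and the same exact p of 0.1, where 10.9% of hairpins were narrower without overlap. The group was chosen by its gap in these same tMCAO rats, so the last comparison is not independent of the choice. These 4 tests and the 2 of miR-3084b share rats, and none can pass the threshold in this design. By region the PostC gaps spread widely. In core, the miR-3084a gap was 2.54, 1.95 and -0.82 in PostC rats 1, 2 and 3, and in peri it was -0.01, -0.54 and 1.92. PostC rats 1 and 2 thus had the wide gap in core and rat 3 had it in peri, and the PostC and sham arrays overlapped in both regions (exact p = 0.4 and 0.9). Without rat 3, the PostC minus sham gap of miR-3084a was 2.24 in core (PostC 5p readings under the limit) and -0.28 in peri. With the regions averaged it was 0.98 for miR-3084a and 0.64 for miR-3084c without that rat, and the PostC minus tMCAO gap was -1.51 and -1.20. Without sham rat 2 the averaged PostC minus sham gap of miR-3084a was 0.54, the lowest value when leaving out 1 rat.

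**Figure D3:**
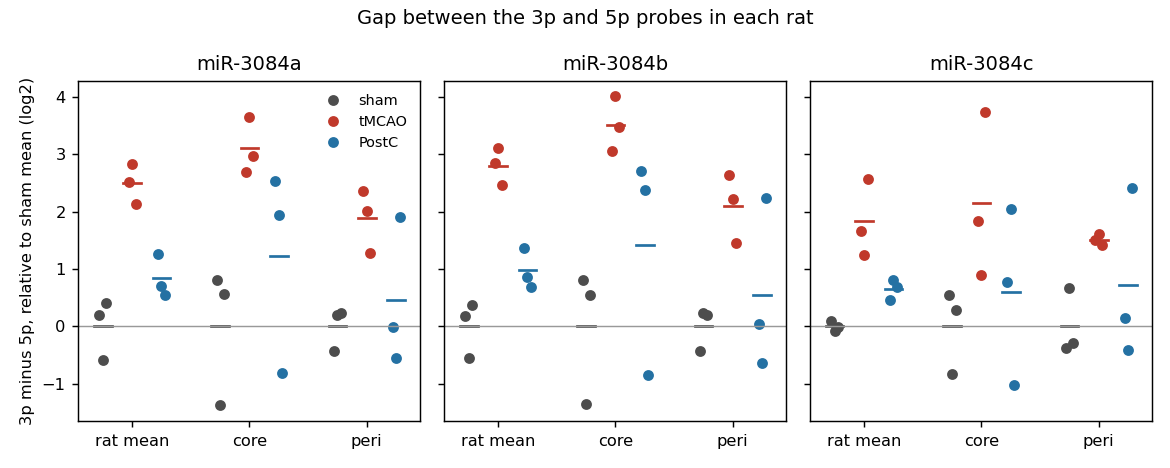
Gap between the 3p and the 5p probe of each hairpin (vertical axis, log2, relative to the sham mean) for the rat mean, core and peri (horizontal axis). Each point is 1 rat and each bar is the mean of 3. In the rat means PostC lies between sham and tMCAO for each hairpin, 0.84 above sham for miR-3084a, while in core and peri the PostC points are split, from -0.82 to 2.54 for miR-3084a in core. miR-3084a and miR-3084b share 1 3p probe.

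Within a rat, no member passed the test of core against peri. The core minus peri change of rno-miR-3084a-3p was 0.27 in sham, 0.87 in tMCAO and 0.31 in PostC, and that of rno-miR-3084c-5p was 0.13, -1.16 and -0.49. In tMCAO the 95% interval for rno-miR-3084c-5p ran from -2.76 to 0.45. The PostC mean of rno-miR-3084c-5p joined values of -0.89 and -2.51 in rats 1 and 2 with 1.92 in rat 3, and was -1.70 without rat 3, while that of rno-miR-3084a-3p was then 1.18. Across all tested probes 0% passed in sham, 0.94% in tMCAO and 0% in PostC, with 29, 58 and 52 at an unadjusted p under 0.05 in limma. The change of core minus the change of peri passed for 0% of probes in PostC against sham and for 0% in PostC against tMCAO, with 56 and 30 at an unadjusted p under 0.05, and no member had an adjusted p below 0.722 in limma. For rno-miR-3084c-5p this difference was -1.29 (95% interval -3.55 to 0.98) in tMCAO against sham.

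Opposite changes of the arms of a hairpin were common on these arrays. Of 156 hairpins with both arms tested, 73 (46.8%) had changes of opposite sign in tMCAO minus sham, and in 45 of them the 3p arm was higher and the 5p arm lower. The gap of 2.50 for miR-3084a was the second largest of the 156 and the 1.83 for miR-3084c the 11th, against a median size of 0.45, but the group was chosen by this contrast, so nothing is read from these ranks. The largest gaps of opposite sign in other hairpins were 2.71 for miR-320 (3p 0.86, 5p -1.85) and 2.46 for miR-181c (3p 0.16, 5p -2.29), the latter a brain-expressed member of the miR-181 family. In PostC minus sham, 65 hairpins (41.7%) had opposite signs, miR-3084a ranked 24th and miR-3084c 37th, and miR-149 (2.10) and miR-34c (1.52) had the largest gaps. In PostC minus tMCAO, 80 (51.3%) had opposite signs, and the largest gaps were -2.32 for miR-320 and -1.86 for miR-494.

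The GC content of the arms moved with the gaps in tMCAO minus sham and in PostC minus sham. Among the 22 hairpins whose 3p target had a GC content at least 10 points above that of the 5p target, as in miR-3084a and miR-3084c, the 3p change exceeded the 5p change in 18 in tMCAO minus sham. Among the 21 with the reverse difference it did so in 9. The counts were 18 of 22 and 10 of 21 in PostC minus sham, and 11 of 22 and 11 of 21 in PostC minus tMCAO. Of the 91 tested probes with a GC content of 30 to 40%, where the miR-3084 5p probes lie, 76 were lower in tMCAO, with a median change of -0.38. Of the 221 with 45 to 55%, where the 3p probes lie, 121 were higher, with a median of 0.07. With the GC trend removed from each array, the miR-3084a gap was 2.05 against 2.50 and the change of rno-miR-3084a-5p was -0.27 against -0.67. The part of base composition in the miR-3084 changes was not tested further.

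**Figure D4:**
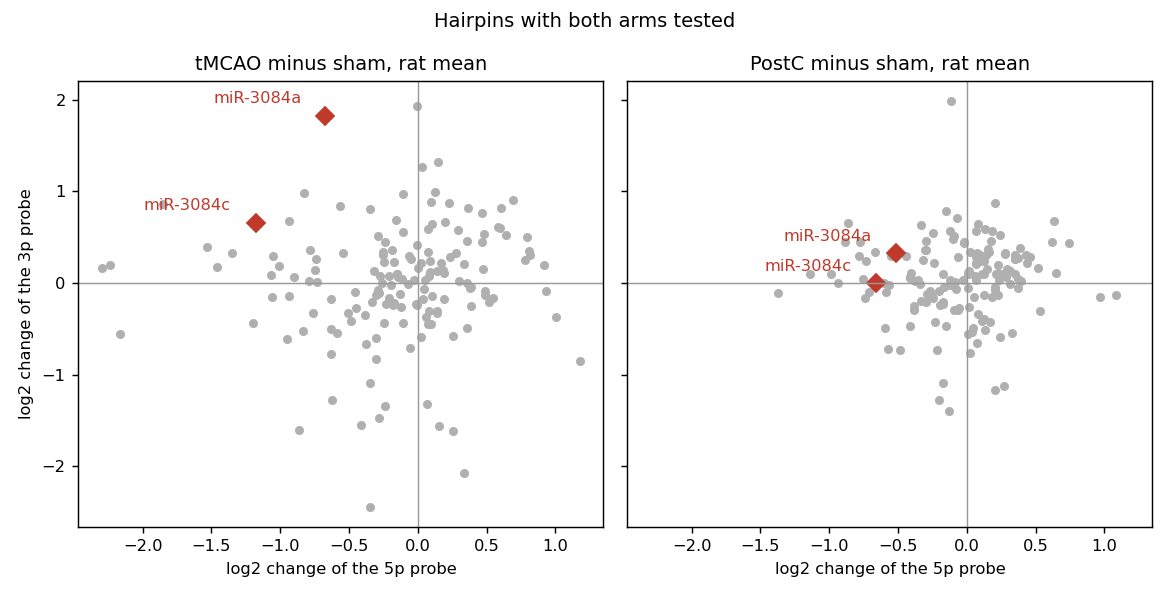
log2 change of the 5p probe (horizontal axis) against that of the 3p probe (vertical axis) for the 156 hairpins with both arms tested, in tMCAO minus sham and PostC minus sham, rat means. Diamonds mark miR-3084a (5p -0.67, 3p 1.82) and miR-3084c (5p -1.18, 3p 0.66) in tMCAO minus sham, both with the 5p value below 0 and the 3p value above it. In PostC minus sham they lie nearer the centre.

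The levels also moved with the number of probes detected on an array. Over the 18 arrays, which come from 9 rats and differ in background, Pearson's r between a probe's normalized level and that number was 0.71, 0.69 and 0.57 for the a, b and c 5p probes. It was -0.53 for rno-miR-3084a-3p and -0.49 for rno-miR-3084c-3p. With group means removed the values were 0.79, 0.80 and 0.73 for the 5p probes and -0.61 and -0.54 for the 3p probes. The 5p probes were thus brighter, and the 3p probes dimmer, on arrays of the same group where more probes were detected. The numbers differed between conditions, with a median of 412.5 in sham, 231.5 in tMCAO and 288 in PostC. The part of these array differences in the miR-3084 changes was not tested.

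**Figure D5:**
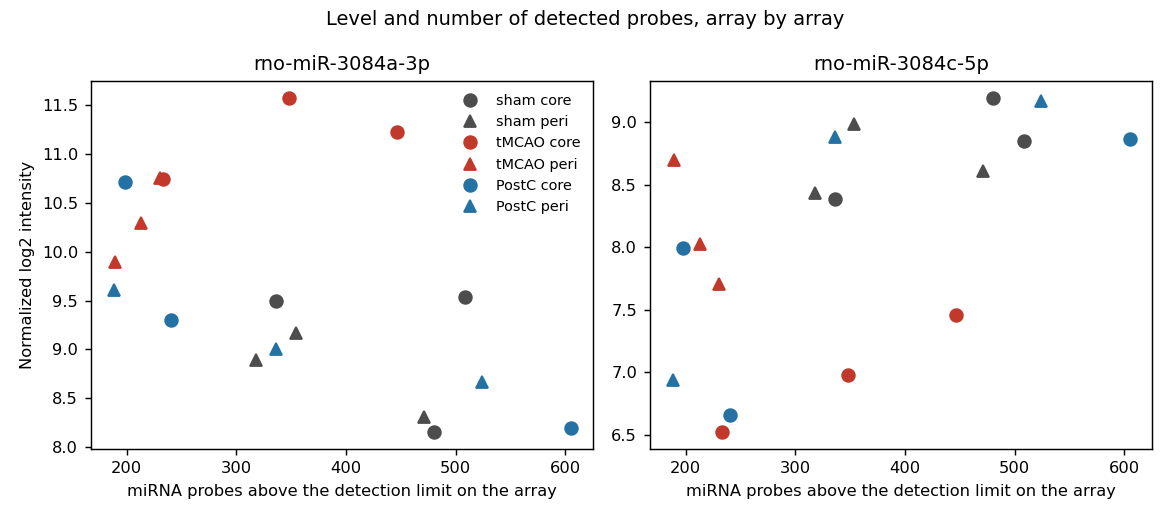
Normalized log2 intensity (vertical axis) of rno-miR-3084a-3p and rno-miR-3084c-5p against the number of miRNA probes above the detection limit on the array (horizontal axis). Each point is 1 of the 18 arrays, circles for core and triangles for peri. rno-miR-3084c-5p is high where many probes were detected (r = 0.57) and rno-miR-3084a-3p low (r = -0.53).

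The 5p probes varied together and the 3p probes less so. Over the 18 arrays the 5p probes correlated with each other at 0.93 to 0.99, whereas the 3p probes correlated at 0.49 with each other, and at 0.17 once group means were removed. rno-miR-3084a-3p correlated with the 5p probes at -0.58 to -0.67, and at -0.41 to -0.48 once group means were removed. These values describe 18 arrays that share rats, and the 5p probes share most of their sequence.

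The probes outside the group most like each member were found by Pearson's r over the 18 arrays. For rno-miR-3084a-3p they were miR-1843a-3p (0.93), miR-505-5p (0.90) and let-7c-5p (0.90), the last from the let-7 family, which is abundant in adult brain. miR-3594-5p was first for all 3 5p probes (0.85, 0.89 and 0.95 for a, b and c). It was followed by miR-494-5p and miR-132-5p for a (0.84 and 0.82) and b (0.87 and 0.85), and by miR-598-5p and miR-344g for c (both 0.84). miR-132 is an activity-regulated miRNA of neurons, and its 5p arm changed by -2.24 in tMCAO minus sham. For rno-miR-3084c-3p the highest values were lower, at 0.64 for miR-3068-3p, 0.55 for miR-380-3p and 0.51 for miR-342-5p. The 99th percentile over all tested probes was 0.50 for this member and 0.79 to 0.85 for the others.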

How the data were processed

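Total RNA was labelled with Cy5 and hybridised to single-colour microfluidic arrays (LC Sciences) with 3968 spots, of which 3044 carry 761 miRNA probes in 4 copies. The authors deposited spot intensity values for each of the 18 arrays, without a local background, and a table of normalized intensity values, made per the study's methods by background subtraction and locally weighted regression (LOWESS). The members, lists and tests were chosen with earlier results of these data known.

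Spot intensities were background-corrected by normexp (offset 50), converted to log2, normalized by cyclic loess over the miRNA spots, and averaged over the 4 spots of a probe (limma 3.58.1, R 4.3.3). A probe counted as detected when the median of its spots was more than 3 median absolute deviations above that of the 612 empty spots. The 532 probes detected on at least 3 of 18 arrays were tested with limma (lmFit, eBayes with a variance trend) on rat means (core and peri averaged), on each region and on the difference between regions, with Benjamini-Hochberg adjustment at 0.05. The 9 rats are separate animals. The number of arrays limits the precision. Each of the 3 contrasts shares rats with the others.

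Probes named in the text were all members, the 3 probes most correlated with each, and the 2 other hairpins with the largest opposite changes per contrast. Genomic positions were not used here. The fits were tested on simulated data. Alternatives covered background correction, scaling, GC trend, filters, the deposited table, Student's test as in the study's methods, the replicate number and leaving out each rat. A loess over all spots was chosen after seeing the data. Figures were drawn with matplotlib 3.10.9.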

Additional observations from a re-analysis of the deposited data

How the results depend on the processing

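The signs of rno-miR-3084a-3p and the 3 5p probes in tMCAO minus sham held under all alternatives that gave them a value (the filter for probes detected on all 18 arrays leaves out the 5p probes), which scaled the arrays, corrected the background, filtered the probes or left out rats in other ways, but their sizes did not. Plain subtraction of the background, with a floor of 1 unit, gave 2.41 for rno-miR-3084a-3p, 1.21 for rno-miR-3084c-3p and -2.06, -2.68 and -2.07 for the a, b and c 5p probes. The gaps became 4.48 for miR-3084a and 3.28 for miR-3084c. In PostC minus sham the gaps became 1.86 and 2.56 and rno-miR-3084c-3p 0.30 (0.0058 in core). In PostC minus tMCAO the miR-3084a gap became -2.62 and rno-miR-3084c-5p -0.20 (-1.16 in peri). The deposited normalized intensities, with a floor of 50 units, gave -1.27, -1.67 and -1.82 for the 5p probes and gaps of 3.18 and 2.44 in tMCAO minus sham, a miR-3084a gap of -2.25 in PostC minus tMCAO and a miR-3084c gap of 0.95 in PostC minus sham. Median scaling gave 1.10 for rno-miR-3084a-3p (0.345 in peri), -0.052 for rno-miR-3084c-3p (-0.15 in peri) and -0.97, -1.37 and -1.66 for the 5p probes in tMCAO minus sham. In PostC minus sham it gave -0.039 for rno-miR-3084a-3p (-0.30 in peri) and -0.20 for rno-miR-3084c-3p in peri, and -1.14 (adjusted p = 0.0645) for rno-miR-3084a-3p in PostC minus tMCAO. Removal of the GC trend gave -0.27, -0.58 and -0.84 for the 5p probes and 2.05 for the miR-3084a gap in tMCAO minus sham, 0.42 for the miR-3084c gap in PostC minus sham, and -0.081 (-0.18 in core) for rno-miR-3084a-5p in PostC minus tMCAO. The methods' t-test gave an adjusted p of 0.172 for rno-miR-3084a-3p in PostC minus tMCAO (-1.50), where limma gave between 0.00802 and 0.0645 under the other alternatives that kept all rats. The cause of these shifts was not tested. Of all 532 probes, limma called 63 in tMCAO minus sham (24 higher), against 130 with median scaling (26 higher), 124 with quantile normalization (51 higher) and 76 with the GC trend removed (44 higher). It called 43 with plain subtraction (20 higher) and 46 with the deposited values (14 higher). In PostC minus tMCAO it called 30, against 15 with plain subtraction, 35 with quantile normalization and 38 with median scaling. In PostC minus sham it called 1, against 2 with quantile normalization or a loess over all spots, and 0 with plain subtraction, median scaling, the GC trend removed or the deposited values. The methods' t-test gave 155, 48 and 94 probes under its threshold in tMCAO minus sham, PostC minus sham and PostC minus tMCAO, and 23, 0 and 6 after Benjamini-Hochberg adjustment.

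Leaving out 1 rat at a time, rno-miR-3084a-3p in PostC minus tMCAO ran from -1.81 to -1.33 and rno-miR-3084c-3p in PostC minus sham from -0.083 to 0.084. In PostC minus sham, rno-miR-3084a-3p in core ran from -0.31 to 0.95, and the a, b and c 5p probes in peri from -0.44 to 0.32, from -0.62 to 0.34 and from -0.77 to 0.35. In PostC minus tMCAO, the core ranges were -0.31 to 0.52 for rno-miR-3084a-5p and -0.20 to 0.86 for rno-miR-3084b-5p. The peri ranges were -0.077 to 0.68, -0.046 to 0.92 and -0.23 to 0.88 for the a, b and c 5p probes.

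Rat numbers 1 to 3 recur in each group but belong to 9 different rats. Deviations of same-numbered rats correlated at -0.40 to 0.23 and those of other pairs at -0.39 to 0.36, so the numbers do not pair the rats. With the replicate number as a block, rno-miR-3084a-3p in PostC minus tMCAO had the same change of -1.50 with an adjusted p of 0.0482, and no other call changed.

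Signal over background limits the 5p probes most, since 8 of 18 arrays read each of them under the detection limit. With 3 rats a group, small differences cannot be shown.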
